A study of Mus musculus with 6 samples.

Results

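C-type lectin receptors are a family of 10 genes here, chosen by name but with earlier results of these data known. Clec4e, Clec4d, Clec4n and Clec4a2 belong to the Dectin-2 gene cluster and Clec7a, Clec12a and Clec2d to the Dectin-1 cluster. Clec5a, Clec10a and Mrc1 lie at other places in the genome. All 10 were found among the 25044 genes of the deposited count table. Their RNA was compared between 3 libraries of macrophages given vehicle (DMSO) and LPS and 3 libraries given 100 nM trametinib and LPS. The cells came from wild type C57BL/6 mice aged 8 weeks. They were washed from the peritoneal cavity 3 days after thioglycollate, which as an irritant recruits macrophages from blood monocytes, kept if they adhered within 1 h, and cultured for 24 h. Drug or vehicle was added 2 h before LPS (100 ng/ml), a bacterial ligand of TLR4, which stayed for 12 h. Trametinib inhibits MEK, the kinase that activates ERK. All cultures had LPS, and the comparison therefore bears on MEK inhibition in stimulated cells alone. The 3 mice of the study are not assigned to libraries in the labels, so the tests reflect the spread between these samples, which may be technical only. A vehicle library stood apart from its group. On principal component 1 (68.8% of the variance) vehicle replicate 3 lay at −16.2, between the other vehicle libraries (−39.3 and −38.1) and the trametinib libraries (26.4 to 35.5). Trametinib replicate 2 differed in another way, with 1.76% of its counts on mitochondrially encoded genes against 0.717% to 0.871% in the other libraries.

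As background, these receptors carry a C-type lectin-like fold with which myeloid cells recognise glycans and lipids of microbes and products of damaged cells. The activating receptors signal through the kinase SYK, either by a tyrosine motif of their own or by pairing with an adaptor, FcR gamma (Fcer1g) or DAP12 (Tyrobp), and then through CARD9 to NF-kappaB. The inhibitory members carry a motif that recruits phosphatases instead, and others, such as the mannose receptor, mainly take up their ligands.

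With trametinib 5 of the 9 receptors that had enough counts to test fell, none rose and 4 did not pass, at an adjusted p under 0.05 in edgeR's quasi-likelihood test. Over all 11286 genes tested, 34.3% passed, with 18.4% falling and 15.8% rising. Vehicle and trametinib libraries did not overlap for the same 5 receptors, each lower with trametinib (25.9% of all genes tested), and for no receptor that was higher (23.4%). Of the 5, Clec5a and Clec4a2 fell at least 2-fold, as did 3.66% of all genes tested. Clec5a fell most, 6.40-fold, followed by Clec4a2 at 2.89-fold. Clec4d, Clec12a and Clec4e fell 1.57-fold, 1.39-fold and 1.38-fold. Clec4n, Clec7a, Clec2d and Mrc1 did not pass, and Clec10a was too low to test. The median log2 fold change of the 9 tested receptors was −0.47, against −0.0053 over all genes tested. Of the 9, 6 (the same 5 and Clec4n) had an unadjusted p under 0.05 with a lower value and 1 (Clec2d) with a higher value. The count of receptors that rose was 1 with DESeq2 and 0 with limma-voom. Without vehicle replicate 3, which stood apart, 6 receptors fell (the same 5 and Clec4n) and none rose, with log2 fold changes of −2.75 for Clec5a, −1.76 for Clec4a2, −0.84 for Clec4d, −0.51 for Clec12a and −0.49 for Clec4e. Without trametinib replicate 2, which had the most mitochondrial counts, 4 fell (Clec4d no longer passed) and none rose. In these bulk samples fewer cells of a type and less RNA per cell cannot be told apart.

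**Figure D1:**
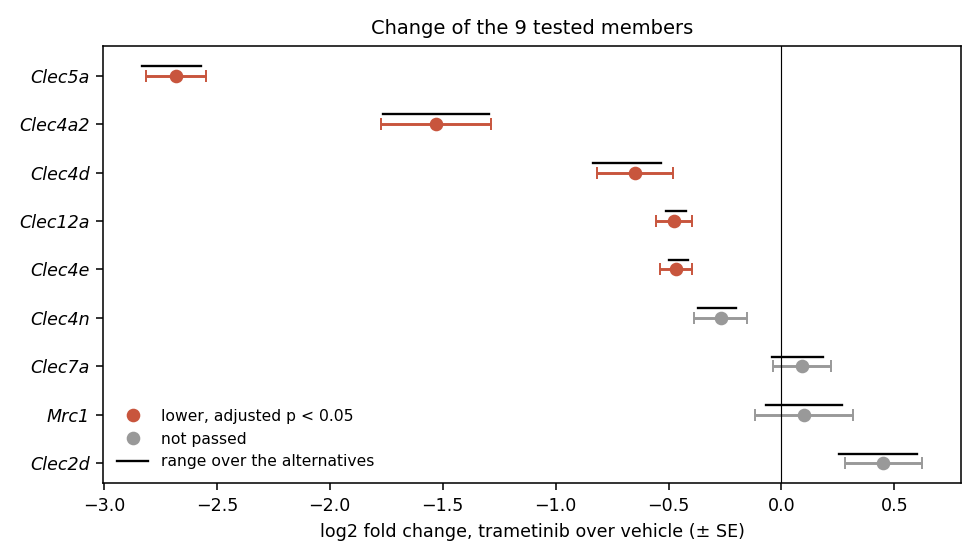
Log2 fold change (trametinib over vehicle, horizontal axis) of the 9 tested receptors, with the standard error as whiskers and, as a black line above each point, the range over 13 alternative fits. Clec5a and Clec4a2 lie farthest to the left at −2.68 and −1.53, and Clec7a and Mrc1 lie near 0.

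The 250 bases before the transcription start of the 5 receptors that fell are printed here because these genes moved in the same direction, so that their flanking sequence can be read side by side. Sequences are from RefSeq on GRCm38.p6 (mm10), 5′ to 3′ on the strand of the gene, and 8 of the 10 receptors matched the promoter table (Clec4n and Clec10a did not). Capitals mark matches, on either strand, to AP-1 (TGANTCA), C/EBP (TTNNGNAA), NF-kappaB (GGG and CC with NNNNN between them), PU.1 (GAGGAA) or CRE (TGACGTCA) motifs. Matches that overlap run together. The RefSeq starts of Clec5a, Clec4a2 and Clec12a lie inside the gene spans that GENCODE gives. For Clec5a the window begins at 40585806 and covers the end of the span at 40585821. The windows of Clec4a2 and Clec12a end at 123122689 and 129350243, far inside spans that begin at 123106428 and 129342691. The sequence before those outer starts of Clec4a2 and Clec12a is not printed.
Clec5a, chr6:40585806-40586055, - strand: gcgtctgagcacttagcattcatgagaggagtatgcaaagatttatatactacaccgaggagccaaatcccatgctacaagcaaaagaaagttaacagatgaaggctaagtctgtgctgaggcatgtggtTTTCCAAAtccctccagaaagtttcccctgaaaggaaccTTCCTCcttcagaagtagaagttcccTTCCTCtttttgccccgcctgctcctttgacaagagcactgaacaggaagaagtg
Clec4a2, chr6:123122440-123122689, + strand: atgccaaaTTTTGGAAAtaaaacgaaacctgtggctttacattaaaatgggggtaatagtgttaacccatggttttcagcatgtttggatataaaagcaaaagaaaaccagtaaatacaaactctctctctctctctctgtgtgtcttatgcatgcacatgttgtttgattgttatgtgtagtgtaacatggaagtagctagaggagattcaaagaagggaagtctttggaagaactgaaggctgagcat
Clec4d, chr6:123261857-123262106, + strand: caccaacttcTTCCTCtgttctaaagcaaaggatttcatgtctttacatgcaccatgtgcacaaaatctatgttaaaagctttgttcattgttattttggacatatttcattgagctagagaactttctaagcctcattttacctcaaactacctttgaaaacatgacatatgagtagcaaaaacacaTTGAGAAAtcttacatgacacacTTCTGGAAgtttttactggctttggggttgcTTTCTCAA
Clec4e, chr6:123289872-123290121, - strand: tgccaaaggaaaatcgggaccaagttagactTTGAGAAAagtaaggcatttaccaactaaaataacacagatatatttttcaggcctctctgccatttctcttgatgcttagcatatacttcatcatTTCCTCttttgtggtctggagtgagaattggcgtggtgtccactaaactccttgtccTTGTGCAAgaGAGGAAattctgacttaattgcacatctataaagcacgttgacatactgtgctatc
Clec12a, chr6:129349994-129350243, + strand: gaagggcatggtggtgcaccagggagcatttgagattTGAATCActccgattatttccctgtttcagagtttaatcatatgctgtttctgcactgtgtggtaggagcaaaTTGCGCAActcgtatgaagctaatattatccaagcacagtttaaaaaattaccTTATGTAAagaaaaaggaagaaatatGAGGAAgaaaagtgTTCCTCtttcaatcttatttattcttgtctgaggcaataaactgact
Among the 8 receptors, a C/EBP match was found in 7 and a PU.1 match in 6, where 36.8% and 23.3% of all 32851 promoter windows of this length hold them. The AP-1 motif was found in Clec12a alone, starting 213 bases before the start, and 6.75% of all windows hold it. An NF-kappaB match was found in Mrc1 alone (45.8% of all windows), and no CRE match in any of the 8 (1.55% of all windows). In Clec4e, a C/EBP match starts 66 bases and a PU.1 match 56 bases before the start. In Clec5a there were 2 PU.1 matches, which start 81 and 55 bases before the start, and a C/EBP match at 120. In Clec4a2, the matches were to C/EBP alone and overlapped, at 242 and 241 bases before the start. Receptors that did not pass held such matches too. Mrc1 had PU.1 matches that start 180, 167 and 35 bases before the start and C/EBP matches at 70 and 69. Clec7a had a PU.1 match and Clec2d had C/EBP matches. A match of letters is a description and not a binding site.

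Clec5a (MDL-1, ENSMUSG00000029915, mm10 chromosome 6, 40574894 to 40585821, minus strand) encodes an activating receptor of myeloid cells that pairs with DAP12. It was measured at 58.6, 59.8 and 50.2 CPM (counts scaled to library size with TMM factors) in vehicle replicates 1, 2 and 3 and at 8.33, 7.47 and 10.5 CPM in trametinib replicates 1, 2 and 3. Every trametinib library was far below every vehicle library. The mean went from 56.2 ± 5.22 CPM down to 8.77 ± 1.57 CPM (SD, with n = 3 in each group), a log2 fold change of −2.68 (SE 0.13, adjusted p 9.8e-05). By log2 fold change it ranked 59 from the lowest of the 11286 genes tested. Its partner, Tyrobp, was measured at 343, 353 and 300 CPM with vehicle and at 347, 357 and 300 CPM with trametinib, and did not pass (log2 fold change 0.013 with an SE of 0.098, at an adjusted p of 0.935). The sign for Tyrobp turned when vehicle replicate 3 (−0.056), or trametinib replicate 1 (−0.013) or 2 (−0.032), was left out.

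**Figure D2:**
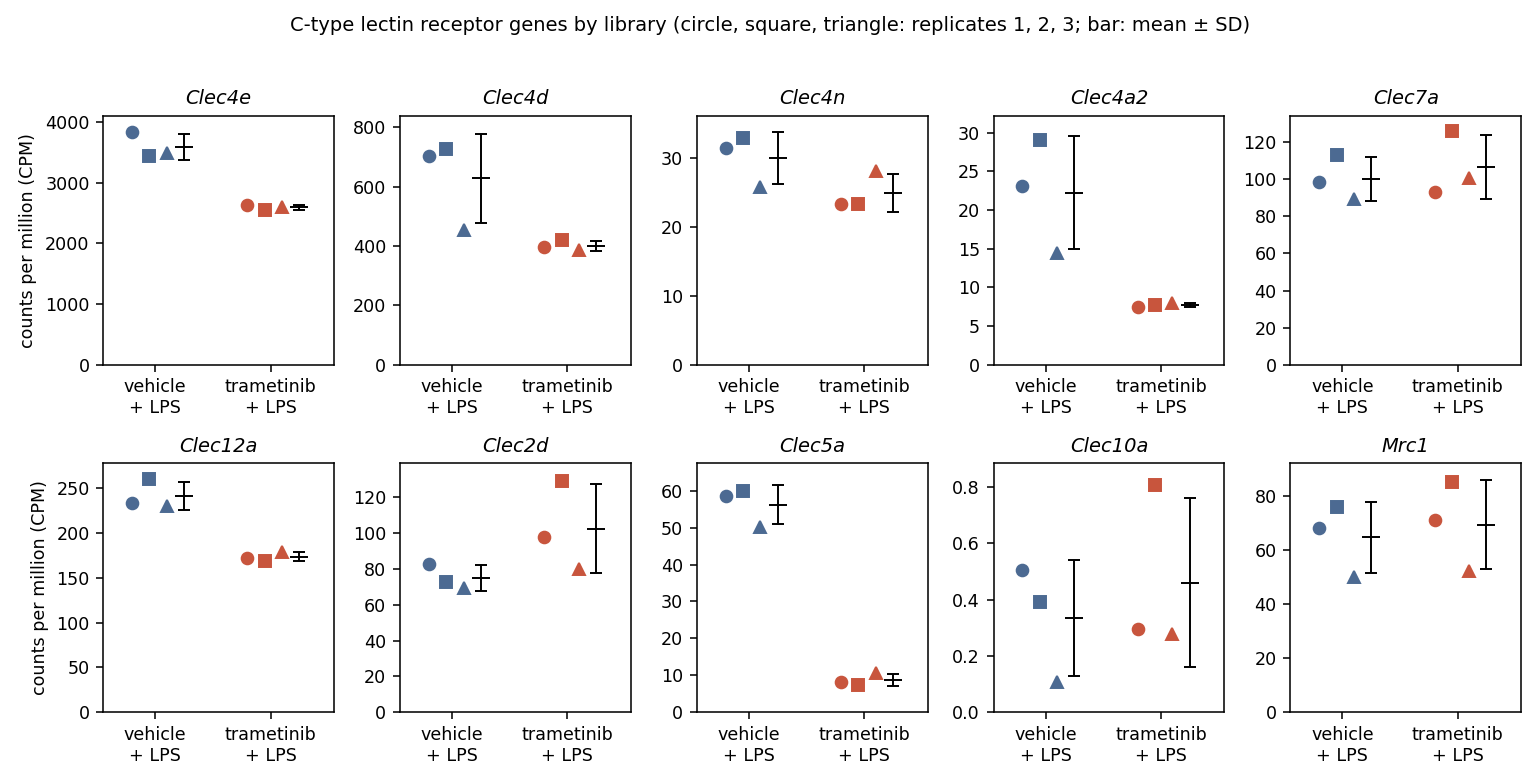
CPM (vertical axes, starting at 0) of each of the 10 receptors in the 3 vehicle (blue) and 3 trametinib (red) libraries, with circles, squares and triangles for replicates 1, 2 and 3 and bars for mean ± SD. The groups do not overlap for Clec4e, Clec4d, Clec4a2, Clec12a and Clec5a, and they overlap for the other receptors.

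Clec4a2 (DCIR, ENSMUSG00000030148, mm10 chromosome 6, 123106428 to 123143999, plus strand) encodes an inhibitory receptor that recruits phosphatases through a cytoplasmic tyrosine motif. Its vehicle libraries held 23.2, 29.0 and 14.5 CPM (replicates 1, 2 and 3), against 7.39, 7.68 and 7.96 CPM in the trametinib libraries. The vehicle libraries were spread widely and the trametinib libraries were nearly equal, with no overlap. The log2 fold change was −1.53 (SE 0.24, adjusted p 0.00354). Of the distinct 50-base stretches in its annotated transcripts, 6.69% also occur in transcripts of other genes, most of them in Clec4a4, so reads in these parts could be assigned to either gene.

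Clec12a (MICL, ENSMUSG00000053063, mm10 chromosome 6, 129342691 to 129365303, plus strand), the other inhibitory receptor of the set, is known to respond to uric acid crystals of dying cells. Clec12a stood at 234, 260 and 230 CPM with vehicle and at 172, 169 and 179 CPM with trametinib. Each group was tight and the groups did not overlap, with a log2 fold change of −0.48 (SE 0.08, adjusted p 0.00240). The phosphatase genes that such receptors use moved in the same direction. Ptpn6, which encodes SHP-1, fell from 540 ± 64.4 to 307 ± 29.9 CPM (adjusted p 0.00104). Inpp5d, which encodes SHIP1, fell from 187 ± 8.33 to 148 ± 14.1 CPM (log2 fold change −0.33, at an adjusted p of 0.0181). Inpp5d no longer passed with vehicle replicate 1 (at 0.0748), or trametinib replicate 1 (0.0628) or 2 (0.0612), left out, and the alternatives spanned adjusted p values from 0.00679 to 0.0748.

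Clec4e (Mincle, ENSMUSG00000030142, mm10 chromosome 6, 123281789 to 123289870, minus strand) binds mycobacterial cord factor and other glycolipids and signals through FcR gamma. It was the most abundant of the 10 by far, rank 22 of all 25044 genes by mean CPM with vehicle and rank 35 with trametinib. The vehicle libraries held 3846, 3446 and 3486 CPM and the trametinib libraries 2639, 2555 and 2602 CPM. The groups were well apart although the change was small, with a log2 fold change of −0.47 (SE 0.07, adjusted p 0.00172).

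Clec4d (MCL, ENSMUSG00000030144, mm10 chromosome 6, 123262111 to 123275265, plus strand) lies beside Clec4e, and its product can pair with Mincle. It was measured at 703, 727 and 455 CPM in vehicle replicates 1, 2 and 3 and at 396, 419 and 387 CPM with trametinib. Vehicle replicate 3 was much closer to the trametinib libraries than to the other vehicle libraries, though the groups did not overlap. The log2 fold change was −0.65 (SE 0.17, adjusted p 0.0223). Clec4d no longer passed when vehicle replicate 1 or 2 was left out (adjusted p 0.0696 or 0.0670), or trametinib replicate 1, 2 or 3 (0.0788, 0.0610 or 0.0752), and the alternatives spanned adjusted p values from 1.6e-05 to 0.0788. The ratio of Clec4e to Clec4d counts per exon length, in which library scaling cancels, (all annotated exons) was 1.76, 1.53 and 2.47 with vehicle and 2.15, 1.96 and 2.16 with trametinib. These overlap, and the log2 ratio differed by 0.15 (exact permutation test, two-sided, p 0.6, and 0.6 adjusted over 2 ratios), between 0.0024 and 0.35 when each library was left out in turn. The choice of length sets the level of such a ratio and cancels in its difference between groups.

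Clec4n (Dectin-2, ENSMUSG00000023349, mm10 chromosome 6, 123229843 to 123247021, plus strand) binds fungal mannans and also uses FcR gamma. It was measured at 31.5, 33.0 and 25.8 CPM with vehicle and at 23.3, 23.4 and 28.2 CPM with trametinib. Vehicle replicate 3 lay below trametinib replicate 3, so the groups overlapped, and the difference did not pass (log2 fold change −0.27 with an SE of 0.12, at an adjusted p of 0.105). It passed when either vehicle replicate 3 (adjusted p 0.0134) or trametinib replicate 3 (0.0484) was left out, and the alternatives spanned adjusted p values from 0.0134 to 0.292. The ratio of Clec4n to Clec4a2 counts per exon length was 2.80, 2.34 and 3.68 with vehicle and 6.51, 6.27 and 7.29 with trametinib. All trametinib values were above all vehicle values, a difference of 1.21 in the log2 ratio (exact permutation test, two-sided, p 0.1, the smallest that 3 against 3 libraries can give, and 0.2 adjusted over 2 ratios). The shared adaptor gene Fcer1g was measured at 1364, 1348 and 1167 CPM with vehicle and 1234, 1213 and 1081 CPM with trametinib, which overlap (log2 fold change −0.14, at an adjusted p of 0.269). Fcer1g was lower with trametinib in 3 of 3 same-numbered pairs, and with the replicate number as a block it did not pass either (adjusted p 0.0577).

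Clec7a (Dectin-1, ENSMUSG00000079293, mm10 chromosome 6, 129461591 to 129472779, minus strand) recognises fungal beta-glucans and signals to SYK by its own motif. Clec7a stood at 98.3, 113 and 89.4 CPM with vehicle and at 93.3, 126 and 101 CPM with trametinib. The groups overlapped, with a log2 fold change of 0.091 (SE 0.13, adjusted p 0.620) that was −0.042 without trametinib replicate 2. GENCODE release M21 gives this gene the biotype polymorphic pseudogene.

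Clec2d (Clr-b, ENSMUSG00000030157, mm10 chromosome 6, 129180615 to 129186534, plus strand) is a ligand rather than a microbial sensor, known as the partner of an inhibitory receptor of NK cells. Levels of Clec2d were 82.9, 72.7 and 69.4 CPM with vehicle and 98.1, 129 and 80.1 CPM with trametinib. Trametinib replicate 2, the library with the most mitochondrial counts, was highest for Clec2d, as it was for Clec7a and Mrc1, and trametinib replicate 3 lay within the vehicle range. The log2 fold change was 0.45 (SE 0.17, adjusted p 0.0835). It passed with DESeq2 (adjusted p 0.0206) and without trametinib replicate 3 (0.0151), and the alternatives spanned adjusted p values from 0.0151 to 0.263. Without trametinib replicate 2 the log2 fold change was 0.25.

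Mrc1 (CD206, ENSMUSG00000026712, mm10 chromosome 2, 14229392 to 14332057, plus strand) encodes the mannose receptor, an endocytic receptor and a usual marker of alternatively activated macrophages. Levels of Mrc1 were 68.3, 76.1 and 50.3 CPM with vehicle and 71.2, 85.2 and 52.3 CPM with trametinib. The groups covered nearly the same range (log2 fold change 0.10 with an SE of 0.22, at an adjusted p of 0.758), and the sign turned without vehicle replicate 3 (−0.054) and without trametinib replicate 2 (−0.068). Clec10a (MGL1, ENSMUSG00000000318, mm10 chromosome 11, 70156197 to 70170834, plus strand), a receptor for galactose-type glycans, had 9, 7 and 2 counts with vehicle and 5, 15 and 5 counts with trametinib. Its summed ratio of trametinib to vehicle was 1.41 (exact 95% interval 0.739 to 2.74, counting error only), so no difference was detectable at this depth. Its paralog Mgl2, with which it shares 8.49% of its 50-base stretches, averaged 0.331 and 0.459 CPM.

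Levels of different receptors were set side by side per length, as CPM per kilobase of annotated exons (RPKM). With all annotated exons as the length, the order with vehicle was Clec4e (724 ± 44.4 RPKM), Clec4d (393 ± 94.3), Clec2d (61.8 ± 5.81), Clec12a (43.6 ± 2.92), Clec7a (38.0 ± 4.51), Clec4n (21.2 ± 2.66), Clec5a (14.6 ± 1.36), Mrc1 (10.2 ± 2.08), Clec4a2 (7.59 ± 2.50) and Clec10a (0.115 ± 0.0704). The libraries of Clec12a and Clec7a overlapped, as did those of Mrc1 and Clec4a2, and all other neighbours in this order were apart, but the order depends on the length used. On the same length, with trametinib Clec7a (40.5 ± 6.50 RPKM) stood above Clec12a (31.4 ± 0.929), and Clec5a dropped to 2.28 ± 0.410 RPKM, beside Clec4a2 at 2.62 ± 0.0977, with overlapping libraries. Clec4e and Clec4d together made up most of the receptor RNA in every library. The share of Clec4e was 55.3% ± 4.69 with vehicle and 54.3% ± 2.35 with trametinib, while that of Clec5a went from 1.12% ± 0.0354 to 0.238% ± 0.0497 and that of Clec2d from 4.71% ± 0.270 to 8.73% ± 1.84. Shares sum to a fixed total, so the share of a receptor can rise where others fall. With the length of the longest principal transcript in place of all exons, Clec4e held 61.8% and 61.2% and Clec4d 20.4% and 18.0%, in vehicle and trametinib. The receptors below them then stood in another order with vehicle, with Clec7a first among them (6.13%), followed by Clec12a (4.18%), Clec5a (2.83%) and Clec2d (2.67%), the last pair with overlapping libraries. With trametinib on that length Clec7a held 8.93%, Clec2d 4.99% and Clec12a 4.11%. Clec5a (0.503% to 0.741%) then lay above Clec4a2 (0.178% to 0.194%) without overlap, so that their similar trametinib levels hold for exon length alone. Under both lengths the share of Clec5a was lower and that of Clec2d higher in every trametinib library than in every vehicle library.

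**Figure D3:**
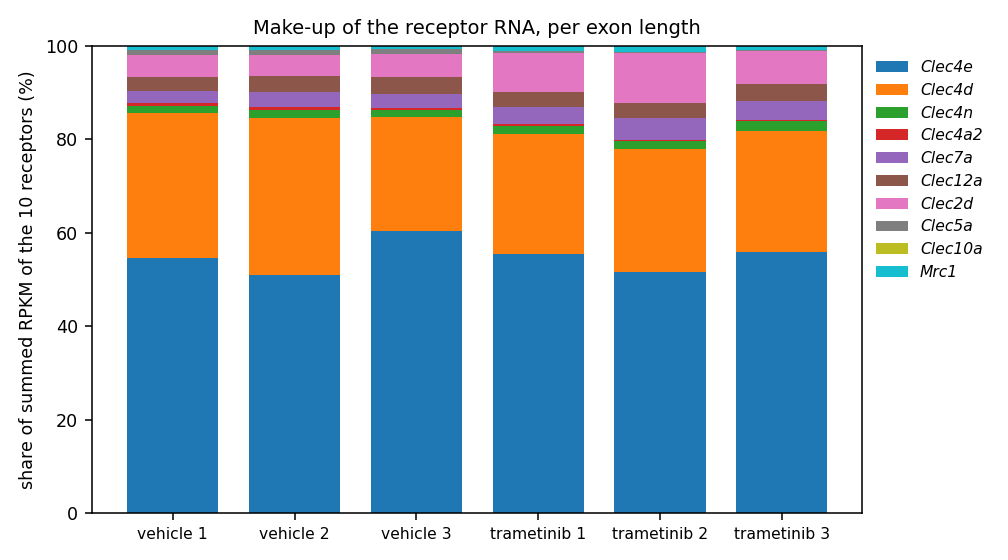
Share of the summed RPKM of the 10 receptors held by each (vertical axis, percent) in each of the 6 libraries. Clec4e and Clec4d fill most of every bar, and Clec2d takes 4.41% to 4.92% in the vehicle bars and 7.05% to 10.7% in the trametinib bars.

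Genes next to these receptors on chromosome 6 did not all move with them. Within 400 kb of the Clec4e start there were 9 coding genes other than the 10 receptors, of which 3 could be tested: Clec4a3 and Clec4a4 rose and Clec4a1 did not pass, beside 15.8% of all genes that rose and 18.4% that fell. Clec4a3, a DCIR-family paralog of Clec4a2, rose while Clec4a2 fell: it was measured at 91.1, 90.3 and 120 CPM with vehicle and at 192, 182 and 158 CPM with trametinib (log2 fold change 0.82 with an SE of 0.12, at an adjusted p of 0.00181). None of its distinct 50-base stretches occurs in another annotated gene. Clec4a4, a low paralog named after its values were seen, rose from 0.641 ± 0.246 to 1.32 ± 0.247 CPM (adjusted p 0.0424). Of the distinct 50-base stretches of Clec4a4, 15.7% also occur in Clec4a2, so reads in these parts could be assigned to either gene. The Clec4a4 call was lost with DESeq2 (adjusted p 0.0881) and without each of 5 libraries, vehicle replicates 1 and 2 (0.142 and 0.122) and trametinib replicates 1, 2 and 3 (0.153, 0.0708 and 0.0735), where the 13 alternatives ran from 0.0124 to 0.153. Clec4a1, the paralog at the far end, averaged 452 ± 27.0 and 387 ± 20.9 CPM and did not pass (log2 fold change −0.22, at an adjusted p of 0.0612), though it did with the replicate number as a block (0.0190) and without vehicle replicate 3 (0.0184), and the alternatives spanned adjusted p values from 0.0184 to 0.196.

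Within 400 kb of the Clec7a start, 6 of 19 coding genes other than the 10 receptors could be tested: 2 fell, 1 rose and 3 did not pass, beside the same shares of all genes. Olr1, which encodes the oxidised LDL receptor LOX-1, was low and fell from 2.12 ± 0.232 to 0.532 ± 0.322 CPM (log2 fold change −1.96 with an SE of 0.38, at an adjusted p of 0.00496). Cd69, an early activation antigen, fell from 211 ± 39.1 to 131 ± 22.0 CPM (adjusted p 0.0179), a call lost with vehicle replicate 1 (0.0615) or 2 (0.0608), or trametinib replicate 1 (0.0614), left out. Clec1b, the gene of CLEC-2, rose from 1.25 ± 0.365 to 2.64 ± 0.696 CPM (adjusted p 0.0211), and did not pass with vehicle replicate 1 (0.0758), or trametinib replicate 1 (0.0861) or 2 (0.0764), left out. Over the 13 alternatives the adjusted p ran from 0.000234 to 0.0615 for Cd69 and from 0.00661 to 0.0861 for Clec1b.

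**Figure D4:**
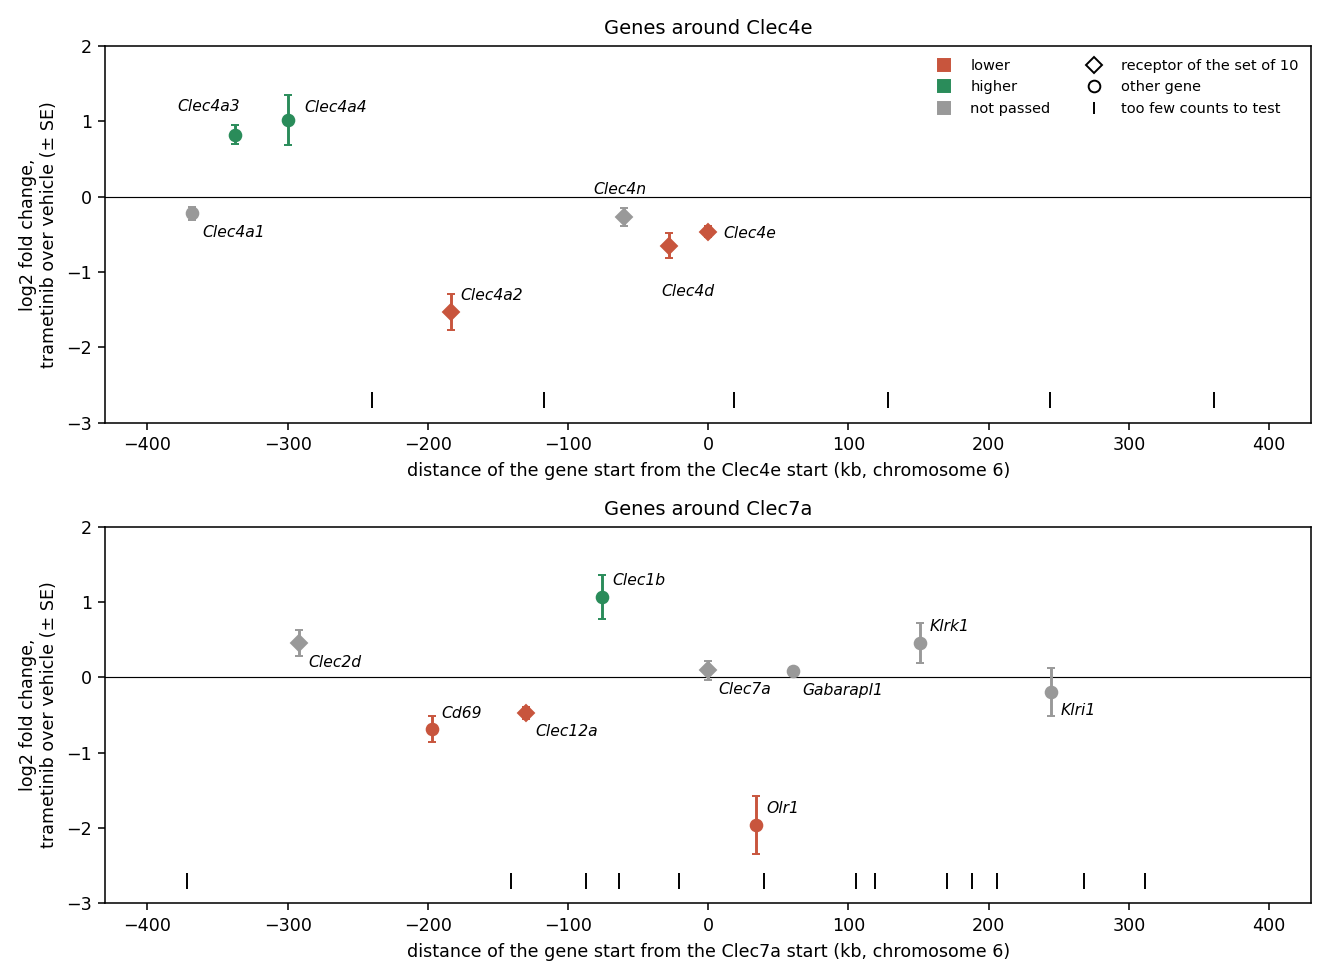
Log2 fold change ± SE (vertical axis) of tested genes within 400 kb of Clec4e (top) and Clec7a (bottom), by distance of their starts in kb (horizontal axis). Diamonds are receptors of the set of 10, circles are other genes and ticks are genes with too few counts to test. Clec4a2 lies at −1.53 and Clec4a3 at 0.82.

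Other genes of the C-type lectin domain family were counted from a list of 68, of which 66 were in the table, 20 of them with no count in any library. Of the 17 that could be tested, 7 rose, 3 fell and 7 did not pass, beside 15.8% and 18.4% of all genes, and the median log2 fold change was 0.46. Among the 17 are Clec4a1, Clec4a3, Clec4a4, Clec1b, Olr1 and Cd69, which were already counted above as neighbours. The count of genes that rose was 2 without vehicle replicate 1, 2 without trametinib replicate 1, 3 without trametinib replicate 2 and 4 without trametinib replicate 3. With the replicate number as a block 10 rose and 5 fell. Layn, a hyaluronan receptor, rose from 12.5 ± 2.81 to 22.1 ± 0.652 CPM (adjusted p 0.00297). Cd93, a transmembrane glycoprotein of myeloid and endothelial cells, fell from 85.8 ± 9.46 to 62.4 ± 5.19 CPM (adjusted p 0.00642). Pla2r1, a relative of the mannose receptor, rose from 4.20 ± 0.184 to 6.79 ± 1.45 CPM (adjusted p 0.0153), a call lost with vehicle replicate 1 (0.0511), or trametinib replicate 1 (0.0595) or 2 (0.0588), left out. Clec2i, a relative of Clec2d, rose from 1.61 ± 0.567 to 3.09 ± 0.427 CPM (adjusted p 0.0233), a call lost without vehicle replicates 1 and 2 (0.0863 and 0.0808) and trametinib replicates 1 and 3 (0.0653 and 0.0715). Cd72, a B cell coreceptor gene also used by macrophages, averaged 288 ± 56.7 and 241 ± 22.7 CPM and did not pass (log2 fold change −0.26, at an adjusted p of 0.187), though it did with the block (0.0316). Over the 13 alternatives the adjusted p ran from 0.00402 to 0.0595 for Pla2r1, 0.00203 to 0.0863 for Clec2i and 0.0316 to 0.485 for Cd72.

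Downstream of the receptors, 59 signalling genes were all tested: 20 fell, 12 rose and 27 did not pass, beside 18.4% and 15.8% of all genes, and their median log2 fold change was −0.086. The count that rose dropped to 5 when vehicle replicate 1 was left out, to 6 for vehicle replicate 2, to 6 for trametinib replicate 1 and to 7 for trametinib replicate 2. Syk, the kinase that the activating receptors share, was measured at 1521, 1443 and 1455 CPM with vehicle and 1208, 1136 and 1187 CPM with trametinib. Its groups did not overlap, and Syk fell slightly (log2 fold change −0.32 with an SE of 0.069, at an adjusted p of 0.00723). Card9, the adaptor that links SYK to NF-kappaB, was measured at 27.7, 29.1 and 29.9 CPM and at 33.2, 33.6 and 32.7 CPM. Card9 did not pass (log2 fold change 0.20, at an adjusted p of 0.0570), and did in 4 of 13 alternatives, among them the replicate block (0.0468) and without vehicle replicate 3 (0.0401), over a span of 0.0401 to 0.191.

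Larger falls lay in kinases and adaptors beside SYK. Lyn, a SRC-family kinase, fell from 374 ± 92.4 to 125 ± 6.25 CPM (adjusted p 0.000875), and Lcp2, the adaptor SLP-76, from 254 ± 61.1 to 54.9 ± 2.86 CPM (adjusted p 0.000342). The PI3 kinase subunit genes Pik3cg and Pik3cd fell, with log2 fold changes of −2.52 and −0.92 at adjusted p values of 0.000699 and 0.000605. Sh2b3, an adaptor that restrains cytokine receptor signalling, fell as well (log2 fold change −0.96, at an adjusted p of 0.00022). The gene with the lowest value in this list, Dok2, an adaptor named after its values were seen, had a log2 fold change of −3.87 (SE 0.64, adjusted p 0.00523). Dok2 was low, with 171, 173 and 60 counts in vehicle replicates 1, 2 and 3 and 8, 3 and 16 counts in trametinib replicates 1, 2 and 3. Of those that rose, Src, a tyrosine kinase, went from 250 ± 14.8 to 390 ± 38.6 CPM (adjusted p 0.00138). Ppp3ca, a calcineurin subunit gene, rose 1.43-fold (adjusted p 0.00177), Cblb, a ubiquitin ligase gene, 1.31-fold (adjusted p 0.00304), and Trim62, a ubiquitin ligase gene that acts on CARD9, 1.48-fold (adjusted p 0.00871).

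**Figure D5:**
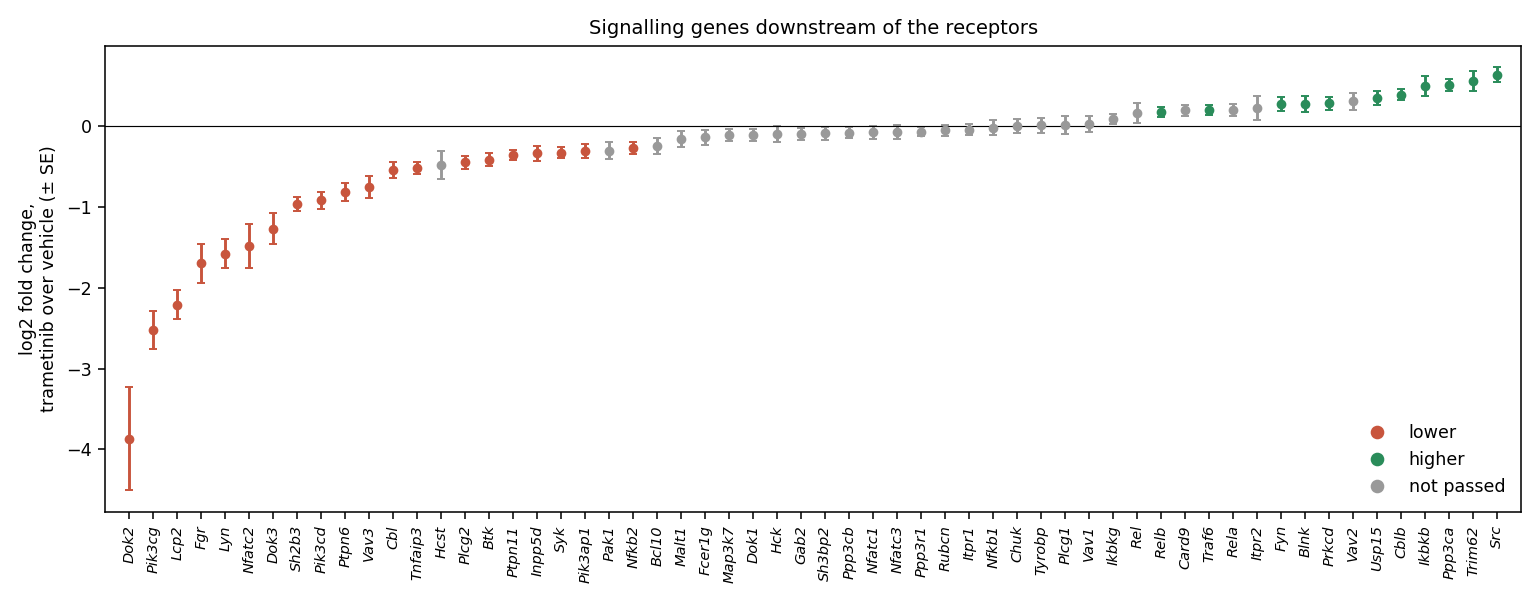
Log2 fold change ± SE (vertical axis) of signalling genes, in order of their value (horizontal axis), with genes that fell in red, genes that rose in green and genes that did not pass in grey. The values shown run from −3.87 for Dok2 to 0.64 for Src, and Fcer1g and Tyrobp lie near 0.

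Library totals ran from 17453778 to 19648467 counts. Macrophage markers were abundant in every library, with summed levels of 19627 to 21984 CPM with vehicle and 19309 to 21845 CPM with trametinib, and all 10 above 1 CPM on average. Single macrophage markers differed between the groups under this sum, in which Lyz2 was the largest term. Adgre1 ran from 1476 to 1865 CPM with vehicle and from 860 to 982 CPM with trametinib, Itgam from 40.1 to 84.0 and from 23.5 to 35.9 CPM, and Mertk from 99.2 to 106 and from 182 to 251 CPM, and their part in the results was not tested. Of 10 dendritic cell markers 2 averaged at least 1 CPM. Their summed level was 3.48 to 9.83 CPM with vehicle and 14.8 to 26.4 CPM with trametinib, most of it from Ccr7 in the trametinib libraries, and its part in the results was not tested. Neutrophil markers summed to 4.59 to 7.34 and 4.29 to 10.6 CPM (9 of 10 above 0), and resident large peritoneal macrophage markers to 3.62 to 6.30 and 4.45 to 6.77 CPM (9 of 9 above 0). B cell markers summed to 15.1 to 30.1 and 16.1 to 21.5 CPM, nearly all from Cd22. T and NK cell markers summed to at most 0.448 CPM (9 of 9 above 0), mast cell and eosinophil markers to at most 1.50 CPM (5 of 8 above 0), and fibroblast and mesothelial markers to at most 2.95 CPM (7 of 9 above 0). Retnlg, Mcpt4, Ms4a2, Ear1, Msln and Lrrn4 were at 0 in all libraries.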

How the data were processed

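RNA was sequenced from ribosomal-RNA-depleted libraries of 6 cultures, 3 per group. The authors deposited raw read counts per gene, with no normalization. HISAT2 2.1.0, featureCounts 1.6.4, DESeq2 1.24.0, R 3.6.0 and mm10 are named per the submitters' processing notes. The sources used here do not give the annotation, the strand setting or the handling of reads with several hits, so counts of close paralogs are less certain. Of 25354 entries, 310 repeated an identifier and were dropped. The remaining 25044 were matched to GENCODE M21 on mm10 (25033 found).

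Genes were kept by filterByExpr, scaled by TMM and tested with edgeR 4.0.16 (robust quasi-likelihood, group as the only term, Benjamini-Hochberg adjustment over 11286 genes, threshold 0.05) in R 4.3.3. SE is the log2 fold change over the root of F. RPKM used the union of GENCODE exons. The receptors, lists and tests were chosen with earlier results of these data known. The text names all 10 receptors and, from each list, the 5 genes of at least 1 CPM with the smallest p in each direction, plus 10 chosen by role. Some genes that these lists hold are not reported here. Replicate numbers are shared by the groups, and deviations from group means correlated at 0.339, 0.393 and 0.285 for equal numbers (−0.223 to −0.0724 otherwise), so the numbers pair the samples by a rule that asks for over 0.1 in every pair. Deviations from a group mean cancel within the group, so the negative values for unequal numbers are not separate evidence of pairing. The labels state no pairing, and the main comparison is unpaired.

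Between replicates the chi-square per gene was 6.13 to 29.8, so no library was a copy. On simulated counts of 11286 genes for this comparison, the procedure found 24 of the 59 genes set to 1.5-fold, 38 of the 41 set to 2-fold and all 50 set to 4-fold, with 3 false calls among 11015 unchanged genes. The simulation set the same spread between replicates, beyond counting error, for every gene. It held no outlying library and no pairing, so its rates need not hold for these data. The alternatives were DESeq2 1.42.0, its size factors in edgeR, TMM without the 10 most abundant and mitochondrial genes, no low-count filter, at least 1 CPM in 3 libraries, limma-voom (limma 3.58.1), the replicate block, leaving out each library, and, added after seeing the data, transcript length for shares.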

Additional observations from a re-analysis of the deposited data

How the results depend on the processing

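Clec4e, Clec4a2, Clec12a and Clec5a passed, in the same direction, in all 13 alternatives, and Clec4d in 8 of 13. Receptors that fell numbered 5 in every alternative that kept all 6 libraries, and 4 to 6 when each library was left out. Receptors that rose numbered 1 with DESeq2 and 0 to 1 when each library was left out. The replicate block, as a term for the pairing, left the call of every receptor as it was. With the block 5 of the other C-type lectin domain genes fell and 10 rose. It also brought Clec4a1, Cd72 and Card9 past the threshold, and changed no other call among the genes named. Leaving out each library gave 2 to 7 other C-type lectin domain genes that rose, 5 to 17 signalling genes that rose, and over all genes 1068 to 2210 that rose and 1360 to 2453 that fell. The highest of these counts (7, 17, 2210 and 2453) came without vehicle replicate 3. With all 6 libraries 1787 of all genes rose and 2082 fell. Fewer samples enter each of the fits with a library left out, and the cause of the differences was not tested further. Signs turned for 3 genes near 0, whose log2 fold changes ran from −0.042 to 0.18 for Clec7a, −0.068 to 0.27 for Mrc1 and −0.056 to 0.086 for Tyrobp when each library was left out. Transcript length in place of exon length gave shares, with vehicle and trametinib, of 61.8% and 61.2% for Clec4e, 20.4% and 18.0% for Clec4d, 6.13% and 8.93% for Clec7a, 4.18% and 4.11% for Clec12a, 2.83% and 0.608% for Clec5a, 2.67% and 4.99% for Clec2d and 0.383% and 0.184% for Clec4a2. Clec4n held 1.61% and 1.83% on exon length and 1.06% and 1.21% on transcript length, with vehicle and trametinib. The shares of Clec7a, Clec5a, Clec2d and Clec4n moved by over 1.5 times and the order below Clec4d changed. The reason is that the receptors differ in how much of their annotated exon length the transcript covers. Depth limits Clec10a, with 2 to 15 counts per library. The simulation recovered 24 of 59 changes of 1.5-fold, with the same spread beyond counting error set for every gene, so it does not show a limit of depth.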

Other observations

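Vehicle replicate 3 was lower than the mean of the other vehicle libraries in all 10 receptors, by amounts that differed between them. It held 55.5% of that mean for Clec4a2 and 63.6% for Clec4d, 69.6% for Mrc1, 80.1% for Clec4n and 24.1% for Clec10a (2 counts). For Clec4e and Clec12a it held 95.6% and 93.3%, and for Clec5a, which fell most with trametinib, 84.8%. These are values of a single library and were not tested.

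Mrc1 was highest in replicate 2 and lowest in replicate 3 in both groups. Replicate for replicate, its trametinib value was above its vehicle value in 3 of 3 pairs, by small amounts (71.2 against 68.3, 85.2 against 76.1 and 52.3 against 50.3 CPM). With the replicate number as a block its log2 fold change was 0.09 with an SE of 0.06, against an SE of 0.22 without the block, and it did not pass in either fit (adjusted p 0.220 and 0.758).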
